A study of Homo sapiens with 10 samples.

Results

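The genes described here make cholesterol, switch its synthesis on and off, or handle it inside the cell. They comprise 28 genes taken by name from the 33551 rows of a count table of A549 cells, which are an established line from a human lung adenocarcinoma: 20 enzymes of the mevalonate, prenyl, squalene and sterol steps, 5 regulators of the SREBP transcription factors and 3 genes of sterol transport, uptake and storage. All 28 names were found in the table and passed the filter on low counts. The lowest count of a member in any library was 446, for MYLIP. Its 95% Wilson interval, computed on the halved count and halved library total, ran from 87.7% to 114% of the value, for counting error only. The 28 genes do not include every step of the pathway, and the steps not listed were not analysed here.

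The study's 5 A549 lines were wild type (WT), a line labelled as a knockout (KO) of ABCA3, and lines with the ABCA3 variants L101P, E292V or E690K. ABCA3 is a lipid transporter of surfactant-storing organelles, and the series addresses whether a lentiviral vector that supplies it corrects type 1 and type 2 variants. From each line came an untreated library and a library of cells exposed overnight to the VSVG lentiviral vector LV-ABCA3:GFP, which encodes an ABCA3 and GFP fusion, at an MOI (infectious vector units per cell) of 20. That makes 10 libraries with no replicate within a line and treatment, and all cells were grown in medium with 10% fetal bovine serum. The labels do not say whether a line is a single clone, and each genotype is 1 line, so that a difference between lines cannot be told apart from a difference between clones.

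Total counts ranged from 59430095 to 96811421 per library. Summed epithelial markers stood at 5434 to 11462 CPM (counts scaled to the same total in every library), and all 5 of these markers were detected. The 5 alveolar type 2 markers, which include surfactant protein genes, summed to 0.717 to 1.83 CPM, so the defining markers of that cell type were near 0. The 4 leukocyte markers summed to 1.15 to 5.31 CPM and the 3 endothelial markers to 0.098 to 1.02 CPM. CD3E, a T cell marker, was at 0 in all 10 libraries. The KO pair went against its labels. The library labelled KO untreated held 45023 ABCA3 counts and 2842 EGFP counts, and the library labelled KO transduced held 2092 and 4. EGFP was also counted in the other untreated libraries (60 to 5924 counts), so that none of the 5 untreated libraries was free of it. Marker, ABCA3 and EGFP values are per library total, without further scaling.

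Cells build cholesterol from acetyl-CoA through mevalonate, prenyl diphosphates, squalene and lanosterol. When sterols in the endoplasmic reticulum fall, SCAP escorts the SREBP proteins (encoded by SREBF1 and SREBF2) to the Golgi, where proteases release the part that activates the enzyme genes. When sterols are plentiful, INSIG proteins hold SCAP back, and INSIG1 is itself an SREBP target. In the lung, alveolar cells need cholesterol as a component of surfactant.

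SREBP proteins act on promoters together with the factor NF-Y, which binds CCAAT boxes. Of the 28 members, 25 had an entry among the RefSeq promoters of GRCh38.p14 (300 bases around the first listed start of each gene). The motif CCAAT, searched on both strands, occurred in 17 of the 25, against 33.04% of 27305 promoters. The sterol regulatory element consensus TCACNCCAC occurred in 1 of the 25, that of SREBF2, against 0.88% of all promoters, and the E-box CACGTG in 3 (SC5D, SCAP and INSIG1), against 6.49%. No member's promoter held motifs that overlap each other. The promoters of 5 genes are printed, because they had the largest differences between lines (INSIG1, DHCR7), stand at the start and in the middle of the pathway (HMGCS1, MSMO1) or hold the sterol element (SREBF2). Each is the part of the 250 bases before the RefSeq start that lies outside the gene's annotated exons, 5' to 3' on the gene's strand, with CCAAT (or ATTGG, its reverse complement) and the sterol element in capitals.
INSIG1 (chr7:155297628-155297775, plus strand): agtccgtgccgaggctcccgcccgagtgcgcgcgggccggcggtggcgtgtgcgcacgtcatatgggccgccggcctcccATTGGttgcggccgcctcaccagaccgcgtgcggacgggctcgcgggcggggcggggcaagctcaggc
DHCR7 (chr11:71448436-71448643, minus strand): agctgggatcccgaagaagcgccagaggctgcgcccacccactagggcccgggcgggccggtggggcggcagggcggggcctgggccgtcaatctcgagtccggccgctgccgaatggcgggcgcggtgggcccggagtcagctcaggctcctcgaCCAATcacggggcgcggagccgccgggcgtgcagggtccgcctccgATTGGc
HMGCS1 (chr5:43313513-43313662, minus strand): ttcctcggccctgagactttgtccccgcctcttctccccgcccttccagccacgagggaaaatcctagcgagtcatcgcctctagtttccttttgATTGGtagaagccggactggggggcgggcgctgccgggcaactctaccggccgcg
MSMO1 (chr4:165327419-165327622, plus strand): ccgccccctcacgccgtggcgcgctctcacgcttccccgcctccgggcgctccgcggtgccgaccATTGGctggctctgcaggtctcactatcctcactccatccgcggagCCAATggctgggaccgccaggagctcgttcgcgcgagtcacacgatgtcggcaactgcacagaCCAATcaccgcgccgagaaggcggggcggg
SREBF2 (chr22:41832855-41833078, plus strand): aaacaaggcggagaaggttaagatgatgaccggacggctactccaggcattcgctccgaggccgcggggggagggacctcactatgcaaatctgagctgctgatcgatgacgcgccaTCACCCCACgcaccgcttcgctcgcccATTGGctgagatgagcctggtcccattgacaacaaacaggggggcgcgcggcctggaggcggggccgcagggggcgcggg
The MSMO1 stretch holds 3 CCAAT boxes and the DHCR7 stretch 2. In SREBF2 the sterol element starts 133 bases before the RefSeq start, and a CCAAT box starts at 106 bases before it. RefSeq starts can differ from the gene positions given below. The DHCR7 stretch lies inside the span given for that gene. A match of letters is a description of the sequence, not a measured binding site.

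The summed level of the cholesterol genes was lowest in the E690K pair. Summed over the 28 members, the level was 1510 CPM in untreated and 1521 CPM in transduced E690K cells, against 1790 and 1865 CPM in E292V cells and 1770 and 1793 CPM in WT cells. The L101P pair stood at 1590 and 1630 CPM and the KO-labelled pair at 1714 and 1601 CPM. CPM values of single genes and their sums, apart from markers, are scaled by the TMM factors of the libraries. In bulk RNA, fewer cells of a type and less RNA per cell cannot be told apart.

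Of the 28 members, E690K was the line with the lowest mean level for 16, while it was the lowest for 21.5% of the 12962 genes that averaged 1 CPM or more. E292V was the highest line for 16 members, against 27.1% of those genes. E690K was the highest line for 0 members, against 20.7%. Both E690K libraries lay below both E292V libraries for 21 members (background 29% of 17978 genes tested), below the 8 other libraries for 10 members (background 4.73%), and both E292V libraries lay above the 8 others for 7 (background 7.49%). For 16 members both the E690K and the L101P pair lay below both the WT and the E292V pair (background 8.97%).

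**Figure D1:**
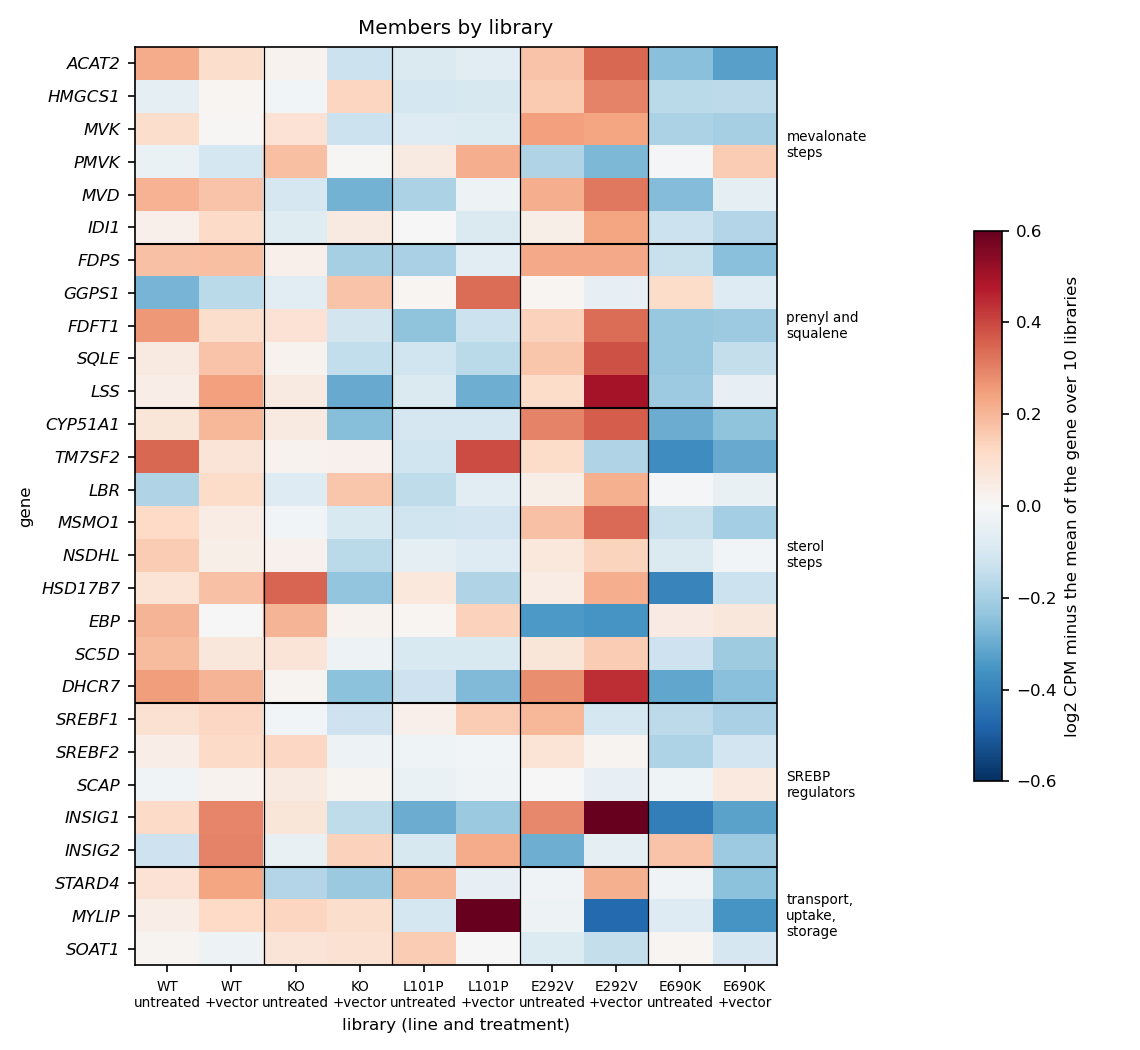
Heat map of the 28 members (rows, grouped by role) in the 10 libraries (columns, ordered by line, untreated before transduced). Colour is log2 CPM minus the gene's mean over the 10 libraries, limited to 0.6 in either direction; the E690K columns are blue and the E292V columns red for most enzymes, and EBP is the enzyme of the sterol steps that is lowest in both E292V libraries.

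E292V and E690K are commonly classed as type 2 variants, which impair transport by ABCA3, and L101P as a type 1 variant, which is misrouted in the cell. The E690K and E292V lines were compared with each other, leaving WT out of the contrast. In edgeR's quasi-likelihood test with Benjamini-Hochberg adjustment over 17978 genes (threshold 0.05), 12 of the 28 members passed, 42.9%, against 10.4% of all genes. Of these, 11 were lower in E690K (background 4.42%) and 1, EBP, was higher (background 5.98%). The 11 were ACAT2, HMGCS1, MVK, MVD, FDPS, FDFT1, SQLE, CYP51A1, MSMO1, DHCR7 and INSIG1. The median log2 difference was -0.30 over the members and -0.02 over all genes. Taken within a treatment it was -0.31 between the untreated libraries and -0.37 between the transduced ones, with 23 of the 28 members lower in E690K in each. Of the 12962 genes that averaged 1 CPM or more, 49.7% were lower in the untreated and 50.4% in the transduced libraries. Each of the 12 genes passed under every alternative run for this comparison.

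The summed level of 3 fibroblast markers was highest in the E292V pair, at 74.8 and 118 CPM. It was 21.4 and 30.4 CPM in the E690K pair and 26.5 and 45.8 CPM in the WT pair, which overlapped. The KO-labelled pair stood at 21.4 and 19.6 CPM and the L101P pair at 22.7 and 13.8 CPM. Nearly all of it was COL1A1; COL1A2 was at 0 in the WT and E690K pairs and had 22 and 2 counts in the E292V pair. The summed level of the 5 epithelial markers was lowest in the E292V pair, at 6042 and 5434 CPM. It was 6952 and 6355 CPM in the WT pair and 7889 and 7555 CPM in the E690K pair. Of these markers, EPCAM and CDH1 were not lowest in E292V. The part of the fibroblast and epithelial markers in the differences was not tested.

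With all lines in 1 test, 11 members differed among the 5 lines (39.3%, background 13%): the 12 above without CYP51A1. The count was 3 without the E292V pair and 3 without the E690K pair. The error of all line contrasts is the departure of the 2 libraries of a line from additivity, and p-values measure the spread between these libraries only.

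**Figure D2:**
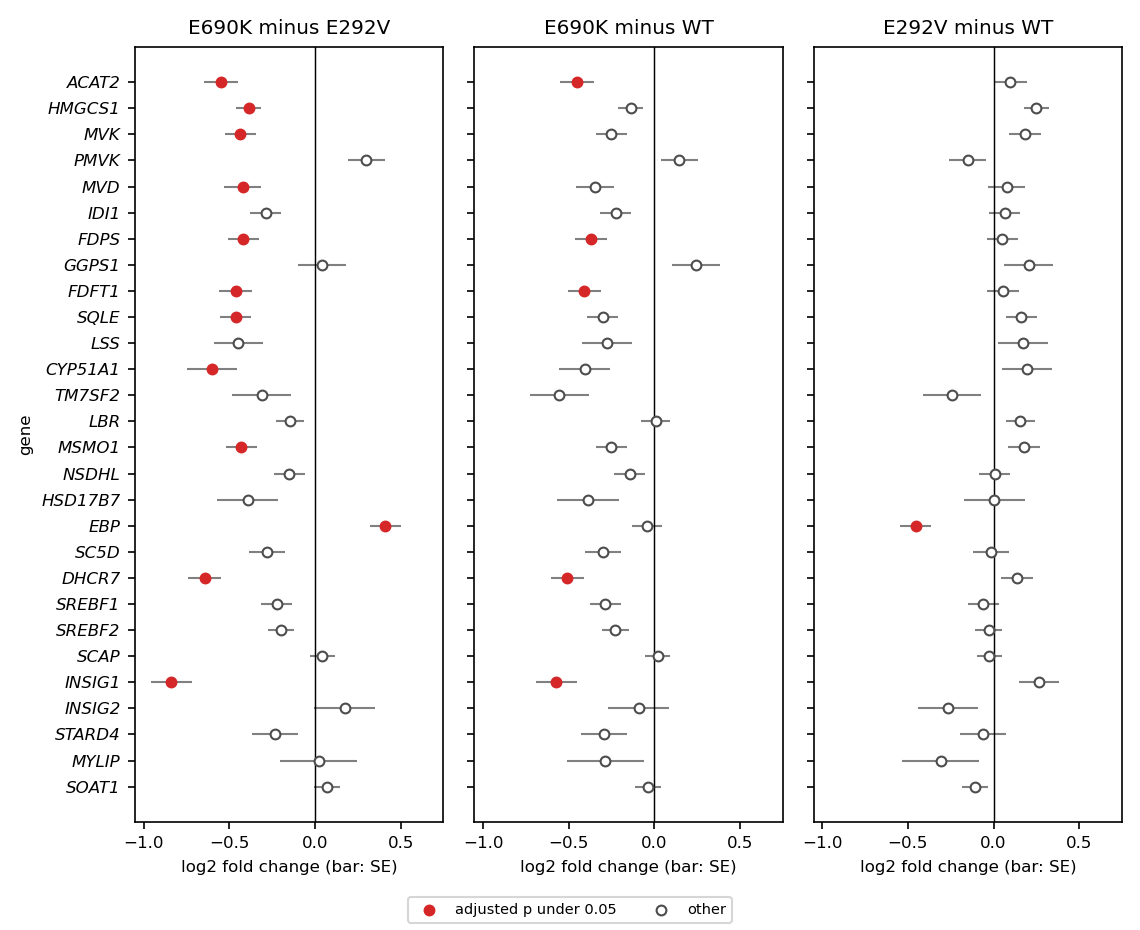
Log2 fold changes (x axis, bar: standard error) of the 28 members (y axis) for E690K minus E292V, E690K minus WT and E292V minus WT; filled points passed the adjusted threshold. In the left panel 11 filled points lie below 0 and EBP above it, in the middle panel 5 lie below 0, and in the right panel EBP alone passed.

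Among the regulators, 1 of 5 passed in the contrast of E690K with E292V (background 10.4% of all genes). INSIG1 (chr7:155297776-155310235), which retains SCAP in the endoplasmic reticulum, differed most of all members. It stood at 35.9 CPM in untreated and 40.6 CPM in transduced WT cells, at 34.9 and 29.9 CPM in the KO-labelled pair, at 26.9 and 28.4 CPM in L101P, at 40.6 and 51.7 CPM in E292V and at 24.9 and 26.5 CPM in E690K. Both E690K libraries were below all others, the L101P pair came next, and neither overlapped the WT or the E292V pair. INSIG1 was 1.79-fold lower in E690K than in E292V (log2 -0.84, SE 0.12, adjusted p = 0.000738) and lower than in WT (log2 -0.57, SE 0.12, adjusted p = 0.016). In L101P it was lower than in WT at an adjusted p of 0.0497 (log2 -0.46, SE 0.12), and this call was lost with DESeq2's size factors and without the E690K pair (adjusted p up to 0.104).

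SREBF1 (chr17:17810399-17837002) and SREBF2 (chr22:41833079-41907308) encode the transcription factors themselves. SREBF1 stood at 217 and 221 CPM in WT, 201 and 186 CPM in the KO-labelled pair, 207 and 226 CPM in L101P, 233 and 188 CPM in E292V and 182 and 177 CPM in E690K. SREBF2 stood at 165 and 174 CPM in WT, 175 and 157 CPM in the KO-labelled pair, 158 and 159 CPM in L101P, 170 and 162 CPM in E292V and 141 and 148 CPM in E690K. For both genes the 2 E690K libraries were the lowest of the 10, by a narrow margin. Neither passed: E690K minus E292V gave log2 -0.23 for SREBF1 (SE 0.09, adjusted p = 0.162) and -0.20 for SREBF2 (SE 0.08, adjusted p = 0.139). Against WT the values were -0.28 (adjusted p = 0.105) and -0.23 (adjusted p = 0.119).

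SCAP, the escort protein, was the steadiest member, between 87.3 and 94.2 CPM in the 10 libraries. Its log2 difference between E690K and E292V was 0.04 (SE 0.07, adjusted p = 0.798). INSIG2, the second retention protein, ranged from 8.02 to 12.1 CPM, with a log2 difference of 0.17 (SE 0.18, adjusted p = 0.638). The level of INSIG1 thus differed between lines by more than those of the other 4 regulators in these libraries, a difference between genes that was not tested.

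Of the 6 mevalonate enzymes, 4 passed as lower in E690K than in E292V (background 4.42% of all genes) and none passed as higher. ACAT2 (chr6:159760328-159779055) joins acetyl-CoA units. Its level was 42.8 and 39.5 CPM in WT, 37.3 and 33.6 CPM in the KO-labelled pair, 34.6 and 35.1 CPM in L101P, 41.3 and 46.6 CPM in E292V and 30.9 and 29.3 CPM in E690K. The E690K pair lay below all others, and WT overlapped E292V. The log2 difference was -0.55 from E292V (SE 0.10, adjusted p = 0.00316) and -0.45 from WT (SE 0.10, adjusted p = 0.0193).

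HMGCS1 (chr5:43289395-43313512) makes HMG-CoA. It was at 101.2 and 105.7 CPM in WT, 103.9 and 115 CPM in the KO-labelled pair, 97.7 and 98.1 CPM in L101P, 117 and 129 CPM in E292V and 93.9 and 94.2 CPM in E690K. Here E292V stood above all 8 other libraries and E690K below them, with a log2 difference of -0.39 (SE 0.07, adjusted p = 0.00455). Against WT neither line passed: E292V gave 0.25 (adjusted p = 0.17) and E690K -0.14 (adjusted p = 0.339).

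MVK (chr12:109573255-109598117) phosphorylates mevalonate, and MVD (chr16:88651935-88663161) turns its diphosphate into isopentenyl diphosphate. MVK stood at 35.1 and 32.8 CPM in WT, 34.7 and 29.9 CPM in the KO-labelled pair, 31.0 and 30.9 CPM in L101P, 38.7 and 38.5 CPM in E292V and 28.6 and 28.4 CPM in E690K. For MVD the values were 29.7 and 28.9 CPM in WT, 24.0 and 21.1 CPM in the KO-labelled pair, 22.6 and 25.2 CPM in L101P, 29.9 and 31.9 CPM in E292V and 21.4 and 24.7 CPM in E690K. E292V was the highest pair for both genes, and for MVD the KO-labelled, L101P and E690K pairs overlapped below WT. E690K minus E292V was -0.44 for MVK (SE 0.09, adjusted p = 0.00889) and -0.42 for MVD (SE 0.11, adjusted p = 0.0267).

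IDI1 (chr10:1039152-1049170) interconverts the 2 five-carbon prenyl units. Its level was 55.7 and 59.1 CPM in WT, 51.8 and 56.5 CPM in the KO-labelled pair, 54.4 and 51.3 CPM in L101P, 55.8 and 64.3 CPM in E292V and 49.8 and 48.3 CPM in E690K. Both E690K libraries were below the other 8, yet the difference from E292V missed the threshold (log2 -0.29, SE 0.09, adjusted p = 0.0588). PMVK, the second kinase of the mevalonate steps, ranged from 21.9 to 30.6 CPM. It had the opposite sign, 0.30 (SE 0.11, adjusted p = 0.11), and was the only mevalonate gene with its lowest level in E292V.

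**Figure D3:**
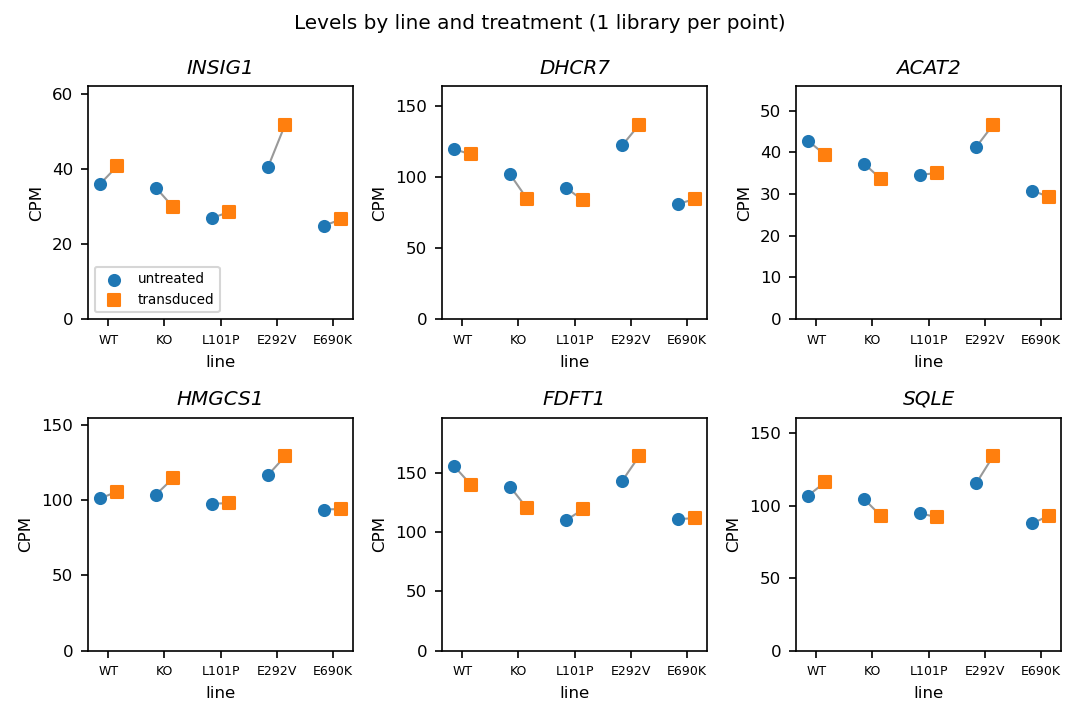
Levels in CPM (y axis, from 0) of INSIG1, DHCR7, ACAT2, HMGCS1, FDFT1 and SQLE by line (x axis), with 1 point per library (circle: untreated, square: transduced) and a line joining the 2 libraries of a line. E292V is the highest line and E690K the lowest in all 6 panels; INSIG1 runs from 24.9 to 51.7 CPM.

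Of the 5 enzymes that carry prenyl units to lanosterol, 3 passed as lower in E690K than in E292V (background 4.42% of all genes). FDPS (chr1:155308748-155320666) makes farnesyl diphosphate, the branch point to squalene and protein prenylation. It stood at 74.8 and 75.2 CPM in WT, 67.8 and 57.7 CPM in the KO-labelled pair, 57.9 and 63.5 CPM in L101P, 77.6 and 77.7 CPM in E292V and 60.5 and 55.7 CPM in E690K. WT and E292V lay above the 6 other libraries. FDPS differed between E690K and E292V by -0.42 (SE 0.09, adjusted p = 0.0102) and from WT by -0.37 (SE 0.09, adjusted p = 0.0347). The call against WT was lost without the KO pair and with its labels exchanged (adjusted p up to 0.0554).

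FDFT1 joins 2 farnesyl groups into squalene, the first step committed to sterols, and SQLE oxidises squalene. FDFT1 was at 156 and 140 CPM in WT, 138 and 120 CPM in the KO-labelled pair, 110 and 119 CPM in L101P, 143 and 164 CPM in E292V and 111 and 112 CPM in E690K. SQLE was at 107 and 116 CPM in WT, 105 and 93.0 CPM in the KO-labelled pair, 94.8 and 92.0 CPM in L101P, 115 and 134 CPM in E292V and 87.9 and 93.1 CPM in E690K. L101P and E690K overlapped at the low end for both genes. E690K minus E292V was -0.46 for FDFT1 (SE 0.10, adjusted p = 0.00776) and -0.46 for SQLE (SE 0.09, adjusted p = 0.00571). Against WT, FDFT1 passed (log2 -0.41, SE 0.10, adjusted p = 0.0271) and SQLE did not (log2 -0.30, adjusted p = 0.0781).

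LSS (chr21:46188141-46228824) closes the sterol rings to form lanosterol. Its level was 52.8 and 61.0 CPM in WT, 53.5 and 41.7 CPM in the KO-labelled pair, 48.4 and 42.0 CPM in L101P, 55.5 and 72.7 CPM in E292V and 44.3 and 49.7 CPM in E690K. The transduced E292V library stood above the rest, and the 2 libraries of a line differed more than for the neighbouring enzymes. The log2 difference of -0.45 missed the threshold (SE 0.14, adjusted p = 0.0739). GGPS1, which makes geranylgeranyl diphosphate for prenylation and not for sterols, ranged from 10.3 to 15.8 CPM and gave 0.04 (SE 0.14, adjusted p = 0.908).

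Of the 9 enzymes from lanosterol towards cholesterol, 3 passed as lower in E690K than in E292V and EBP as higher (background 4.42% of all genes as lower and 5.98% as higher). DHCR7 (chr11:71428193-71452868) reduces 7-dehydrocholesterol to cholesterol. It stood at 120 and 116 CPM in WT, 102 and 85.0 CPM in the KO-labelled pair, 92.5 and 83.8 CPM in L101P, 122 and 137 CPM in E292V and 81.3 and 84.7 CPM in E690K. WT and E292V lay above the 6 other libraries, which overlapped. DHCR7 was 1.56-fold lower in E690K than in E292V (log2 -0.65, SE 0.10, adjusted p = 0.000977), lower in E690K than in WT (log2 -0.51, SE 0.10, adjusted p = 0.0087) and lower in L101P than in WT (log2 -0.42, SE 0.10, adjusted p = 0.0294). The last of these was lost with the KO labels exchanged and without the E690K pair (adjusted p up to 0.0664).

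MSMO1 (chr4:165327623-165343160) removes methyl groups from the sterol ring. Its level was 38.6 and 36.8 CPM in WT, 35.2 and 33.4 CPM in the KO-labelled pair, 32.8 and 32.9 CPM in L101P, 40.3 and 45.0 CPM in E292V and 32.5 and 30.9 CPM in E690K. The 2 lines lay at opposite ends of the 10 libraries, with a log2 difference of -0.43 (SE 0.09, adjusted p = 0.00988). CYP51A1, the lanosterol demethylase, ranged from 6.80 to 10.8 CPM with a median of 8.24. E690K minus E292V was -0.60 (SE 0.15, adjusted p = 0.0207).

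The remaining sterol enzymes did not pass in this contrast. TM7SF2 and LBR, which both reduce the sterol nucleus, gave -0.31 (adjusted p = 0.318) and -0.15 (adjusted p = 0.34). HSD17B7, a ketosteroid reductase, gave -0.39 (adjusted p = 0.208), and SC5D, a desaturase, gave -0.28 (adjusted p = 0.118). TM7SF2 ranged from 9.90 to 16.8 CPM, LBR from 97.8 to 128 CPM, HSD17B7 from 10.2 to 17.1 CPM and SC5D from 15.7 to 20.7 CPM. For TM7SF2 and SC5D the 2 E690K libraries were nevertheless the lowest of the 10.

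The 2 members on chromosome X behaved differently from each other. EBP (chrX:48521158-48528716), a sterol isomerase, stood at 105 and 91.5 CPM in WT, 105 and 92.8 CPM in the KO-labelled pair, 92.3 and 100.7 CPM in L101P, 71.9 and 71.4 CPM in E292V and 94.6 and 95.9 CPM in E690K. Both E292V libraries were below the other 8. NSDHL (chrX:152830967-152869729), a sterol dehydrogenase, stood at 50.4 and 46.5 CPM in WT, 46.2 and 40.6 CPM in the KO-labelled pair, 43.5 and 43.0 CPM in L101P, 47.5 and 49.8 CPM in E292V and 42.8 and 44.8 CPM in E690K. The E690K and L101P pairs lay below the WT and E292V pairs. EBP was lower in E292V than in WT (log2 -0.46, SE 0.09, adjusted p = 0.031) and higher in E690K than in E292V (log2 0.41, SE 0.09, adjusted p = 0.00993). NSDHL gave 0.01 (SE 0.09, adjusted p = 0.991) and -0.15 (SE 0.09, adjusted p = 0.362).

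EBP lies within a stretch of chromosome X that was lower as a whole in the E292V line. From 3 to 56 Mb, each of the 146 genes averaging 2 CPM or more was lower in E292V than in WT. Their median was -0.47 (log2), and 60 of them passed. These limits rest on no stated outside source, and values for other limits are not given. The count therefore describes the stretch and does not test it. The 232 other genes of the chromosome had a median of 0.02 with 3 passing as lower. In the KO-labelled, L101P and E690K lines the medians of the 3 to 56 Mb stretch against WT were 0.00, 0.01 and -0.02. MBTPS2, the protease that frees SREBP in the Golgi, lies in the same stretch and was lower in E292V than in WT (log2 -0.53, SE 0.09, adjusted p = 0.0129), a call lost without the E690K pair (adjusted p = 0.053). It stood at 65.9 and 69.6 CPM in WT, 46.4 and 47.3 CPM in E292V, and 66.4 to 77.7 CPM in the 6 other libraries. NSDHL lies outside it. The region's part in the EBP and MBTPS2 values was not tested.

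**Figure D4:**
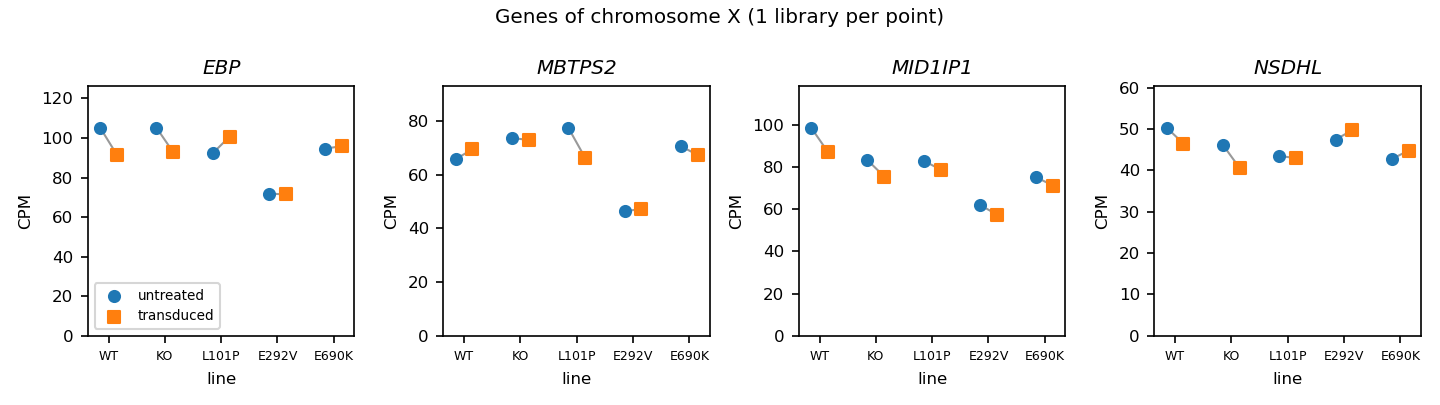
Levels in CPM (y axis, from 0) of EBP, MBTPS2, MID1IP1 and NSDHL by line (x axis), 1 point per library (circle: untreated, square: transduced). EBP, MBTPS2 and MID1IP1 have their lowest libraries in E292V, at 71.4, 46.4 and 57.5 CPM; NSDHL does not.

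The 3 genes of transport, uptake and storage did not pass in any comparison. STARD4 (chr5:111496033-111512590) carries cholesterol between membranes and is an SREBP target. It was at 17.0 and 18.9 CPM in WT, 14.2 and 13.7 CPM in the KO-labelled pair, 18.4 and 15.5 CPM in L101P, 15.8 and 18.6 CPM in E292V and 15.8 and 13.5 CPM in E690K. Its spread within L101P, E292V and E690K was about as wide as the distance between lines, and E690K minus E292V gave -0.23 (SE 0.14, adjusted p = 0.337). MYLIP, a ubiquitin ligase that removes lipoprotein receptors, ranged from 5.82 to 12.5 CPM, and its highest library was transduced L101P. SOAT1, which esterifies cholesterol for storage, ranged from 59.2 to 72.7 CPM.

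Levels can be set against each other only per length of exon. By that measure the highest mean was that of EBP (38.3 CPM per kb) and the lowest that of CYP51A1 (2.36 CPM per kb). Exons of 13 members overlap those of another annotated gene. The overlap was widest for CYP51A1 (79.4% of its exon length, a gene on the same strand), GGPS1 (37.3%, TBCE on the same strand) and ACAT2 (33.9%, SOD2-OT1 on the opposite strand). ACAT2 also overlaps SOD2 (26.5%) and TCP1 (9.2%), both on the opposite strand. The overlap was 18.6% for FDPS and 15% for HMGCS1. Reads in these overlaps cannot be told apart here. Strand use in counting is not given in the sources used here, and strand would not separate genes on the same strand. FDPS and HSD17B7 also have near-identical pseudogene copies, and their counts are uncertain to that extent.

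The contrasts of the 4 lines with WT share the 2 WT libraries, so they are not independent of one another. In E690K, 5 of 28 members passed, all lower: ACAT2, FDPS, FDFT1, DHCR7 and INSIG1 (background 5.38% of all genes, 2.33% as lower and 3.05% as higher). All 5 are among the 12 of the contrast with E292V. The median was -0.28 over the members and -0.02 over all genes, with 24 of 28 members and 52.6% of all genes below 0. The E690K pair lay below the WT pair without overlap for 21 members (background 27.4%). The count was 9 without the L101P pair and 8 with no filter on low counts.

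In L101P, 2 of 28 members passed against WT, DHCR7 and INSIG1, both lower (3.94% of all genes, 1.61% as lower). The median was -0.13 over the members and -0.01 over all genes, and 18 members lay below WT without overlap (background 23.3%). The count was 1 with DESeq2's size factors or the KO labels exchanged, 0 without the E690K pair and 5 with no filter. In E292V, only EBP passed (1.05% of all genes, 0.756% as lower), and it was lost with the KO labels exchanged, without the KO pair and without the E690K pair (adjusted p up to 0.0932). The E292V members had a median of 0.05, with 8 above WT without overlap (background 18.9%) and 4 below it (background 20.3%).

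In the KO-labelled pair, 0 members passed against WT (background 1.8% of all genes, 0.807% as higher and 0.99% as lower). An unadjusted p under 0.05 was reached by 5 of the 28 members and by 2532 of the 17978 genes tested. DESeq2 called 1 member, and edgeR called 2 without a filter on low counts and 2 without the L101P pair. The median was -0.12, and 13 members lay below WT without overlap (background 23.7%). The mean of the 4 edited lines against WT gave 0 members (background 1.37% of all genes, 0.69% as higher and 0.684% as lower). Here 7 members had an unadjusted p under 0.05, as did 2521 of all genes tested. DESeq2 called 1 member, and edgeR 5 without the E292V pair and 2 with no filter. For L101P against the mean of E292V and E690K, a contrast of the type 1 with the type 2 variants, 0 members passed (background 5.79% of all genes, 3.75% as higher and 2.04% as lower). In that contrast 10 members had an unadjusted p under 0.05, as did 3416 of all genes tested. The count of members that passed was 8 without the E690K pair and 3 with no filter.

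Related pathways were counted from lists of 61 further genes, of which 59 were tested. Fatty acid synthesis is driven by SREBP as well. Of its 12 genes, 4 passed as lower and 1 as higher in E690K than in E292V (10.4% of all genes passed in either direction). SCD, which desaturates fatty acids, was at 375 and 380 CPM in E690K, 765 and 913 CPM in E292V, 629 and 734 CPM in WT, 440 and 407 CPM in L101P and 440 and 361 CPM in the KO-labelled pair. The WT and E292V pairs lay above the 6 other libraries. SCD was lower in E690K than in E292V (log2 -1.15, SE 0.11, adjusted p = 9.57e-05) and lower than in WT in E690K (-0.85, adjusted p = 0.00112), in L101P (-0.69, adjusted p = 0.00749) and in the KO-labelled line (-0.77, adjusted p = 0.00597). FADS2, a desaturase of polyunsaturated fatty acids, and ELOVL6, an elongase, gave -0.49 (adjusted p = 0.00173) and -0.62 (adjusted p = 0.00162) between E690K and E292V. MID1IP1, an activator of fatty acid synthesis in the 3 to 56 Mb stretch of chromosome X, was the gene that passed as higher (0.29, adjusted p = 0.0211). Its call was lost with the KO labels exchanged (adjusted p 0.0676).

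Genes of cholesterol efflux and the sterol sensor LXR formed a further list. ABCA1, which exports cholesterol, was at 5.48 and 4.42 CPM in E690K, 11.4 and 20.0 CPM in E292V, 10.3 and 16.6 CPM in WT, 4.94 and 4.31 CPM in L101P and 4.59 and 3.73 CPM in the KO-labelled pair. WT and E292V again lay above the 6 other libraries. The difference of E690K was -1.64 from E292V (SE 0.27, adjusted p = 0.00187) and -1.41 from WT (SE 0.27, adjusted p = 0.00892). ABCA1 was also lower than in WT in L101P (log2 -1.52, adjusted p = 0.00958) and in the KO-labelled line (log2 -1.67, adjusted p = 0.00901). ABCG1, a second exporter, did not pass between E690K and E292V (log2 0.65, adjusted p = 0.227). It stood at 3.82 and 7.02 CPM in L101P and 2.90 and 2.60 CPM in WT, and did not pass there (log2 0.945, adjusted p = 0.109). ABCG1 passed as higher in L101P than in the mean of E292V and E690K, a call lost without the E292V pair.

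Of 15 genes of sterol uptake and transport, 3 passed as lower and 2 as higher in E690K than in E292V (background 4.42% of all genes as lower and 5.98% as higher). The calls of LIPA and TMEM97, named after their values were seen, were lost with the KO labels exchanged and without the KO pair (largest adjusted p = 0.0783 and 0.0597). VLDLR, a lipoprotein receptor, was lower (log2 -1.43, SE 0.30, adjusted p = 0.00819), while LRP8, a related receptor, and GRAMD1B, which moves cholesterol from the plasma membrane, were higher (0.51, adjusted p = 0.00382, and 0.99, adjusted p = 0.00101). NPC2, a lysosomal sterol carrier, passed in the test over all lines only (adjusted p = 0.0294). Of 12 genes of SREBP processing and sterol-regulated degradation, MBTPS2 alone passed (higher in E690K, 0.56, adjusted p = 0.0013). Of 12 genes of the isoprenoid branch, 1 passed: ICMT, which methylates prenylated proteins, was higher (0.32, adjusted p = 0.0168). In both lists the share called, 8.33%, was below that of all genes, 10.4%.

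No member passed the test for the vector, whose groups follow the labels. EGFP rose from 70.909 CPM untreated to 153.011 CPM transduced in WT, 1.01 to 35.884 in L101P and 20.719 to 66.825 in E292V. In E690K it was 16.34 and 17.994 CPM, and in the KO-labelled pair 37.907 and 0.049 CPM. ABCA3 was lower in the transduced library of L101P (1155.694 and 895.762 CPM) and the KO-labelled pair, and higher in WT, E292V and E690K. The lines were thus unequal replicates of transduction, and the effect of this was not tested. With the 5 lines as replicates, 0 members passed (0% of all genes), and 1, LBR, had an unadjusted p under 0.05 (log2 0.15, SE 0.05, adjusted p = 0.541). Among all genes tested, 1236 reached an unadjusted p under 0.05, and no adjusted p was smaller than 0.109. DESeq2 called 88 genes higher and 13 lower, and edgeR without a filter 198 higher and 39 lower, with 0 members in both. The members' log2 changes ranged from -0.07 to 0.16 with a median of -0.01. For INSIG1 the change was 0.10 (SE 0.07, adjusted p = 0.894), for SREBF2 -0.01 (SE 0.05, adjusted p = 0.988) and for HMGCS1 0.07 (SE 0.05, adjusted p = 0.839).

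Single lines differed in the sign of the change. From untreated to transduced, 16 of 28 members were higher in WT (median log2 0.04), 19 in L101P (0.01), 18 in E292V (0.09) and 15 in E690K (0.01). In the KO-labelled pair 7 were higher, with a median of -0.15, and the direction in that pair rests on labels that ABCA3 and EGFP went against. Over all genes of at least 1 CPM, 50.7% to 52.6% were higher in each line. Each of these changes compares 1 library with 1 and has no replicate check. Whether WT answered the vector differently from the other lines was tested with an interaction term: 0 members passed (0% of all genes), 0 members had an unadjusted p under 0.05, and 597 of all genes did.

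**Figure D5:**
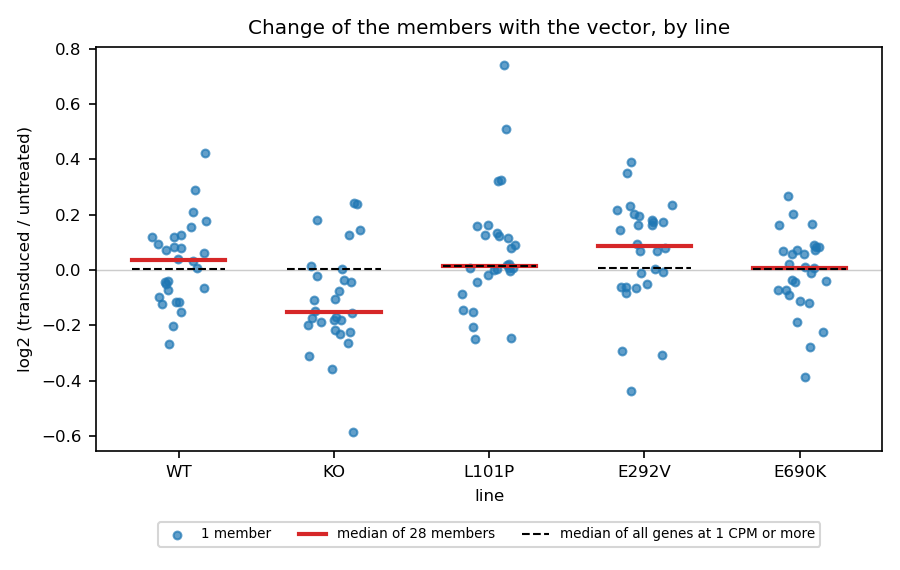
Log2 ratio of transduced to untreated CPM (y axis) for the 28 members in each line (x axis); each point is 1 member, the solid bar the members' median and the dashed bar the median of 12962 genes. Medians lie between -0.15 in the KO-labelled pair and 0.09 in E292V.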

How the data were processed

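The deposited table holds raw counts per gene, whole numbers with no normalization, in 1 column for each of the 10 libraries. Total RNA was sequenced, per the labels' protocols. The submitters' processing notes name GRCh38, featureCounts, Subread, edgeR and limma, without versions. Aligner settings, annotation and strand use are not given in the sources used here. Of the counts from 1 to 10, 81.4% were even, against 51.5% of those above 1000, the form of a table that counts both mates of a pair, so an alternative halved the counts. Positions come from GENCODE 29 on GRCh38, which matched 98.5% of row names and all 28 members.

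Tests on these counts used edgeR 4.0.16 (R 4.3.3): filterByExpr (17978 genes kept), TMM factors (0.972 to 1.03), a model with line and vector as additive terms on all 10 libraries (residual degrees of freedom 4, or 3 with a vector by WT term), the quasi-likelihood test and Benjamini-Hochberg adjustment over all genes tested, threshold 0.05. Log2 fold changes are on edgeR's scale, their SE is the absolute value over the square root of F, and the common coefficient of variation was 12.9%. On simulated data for E690K against WT (17422 genes, 50 per fold size), the fit recovered 24% of genes changed 1.25-fold, 92% at 1.5-fold and 98% at 2-fold.

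The members are the 28 named genes; per-library values are given for 10 of them chosen by name and every other member that passed in a line contrast with WT, the test over all lines or the vector effect. Of each further list, at most 4 genes that passed are named, by smallest p over all lines, and MBTPS2 always; 1 gene of the efflux list is not reported here. Members and lists were chosen with earlier results of these data known. The 2 libraries of a line are paired through the line, which is the block of the vector effect. Alternatives were DESeq2 1.42.0 and its size factors, no filter, at least 10 counts in every library, halved counts, exchanged KO labels, each pair left out, single treatments, and no block. Promoters and their motifs come from RefSeq (GRCh38.p14), 250 bases before to 50 after the start. Figures and promoter searches used Python.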

Additional observations from a re-analysis of the deposited data

Results flagged for a closer look

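In 1 of the 28 members, the change from untreated to transduced had 1 line apart from the 4 others by Dixon's criterion (gap over range above 0.71 for 5 values). CYP51A1 changed by -0.311 (log2) in the KO-labelled pair, against 0.003 to 0.126 in the other lines, a gap of 0.719 of the range. By chance about 1 in 20 such sets would stand apart, and the labels of that pair are in doubt. The counts behind CYP51A1 were the lowest of the enzymes, 465 in the library with the fewest.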

How the results depend on the processing

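The contrast of E690K with E292V gave 12 to 15 members under every alternative run, and its 12 genes stayed past the threshold in each. Over all genes its count was 1869 as reported, and 2934 without the L101P pair.

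With no filter on low counts, members called were 2 for KO, 5 for L101P and 8 for E690K against WT, 2 for the mean of the edited lines and 3 for L101P against the mean of E292V and E690K. All genes called then numbered 982 (KO), 1437 (L101P), 662 (E292V), 1659 (E690K), 809 (mean of the edited lines), 1707 (L101P against the mean of E292V and E690K), 3661 (any line), 198 higher and 39 lower (vector) and 9 (vector in WT against the other lines). DESeq2 called 1 member for KO and 1 for the mean of the edited lines. Its counts over all genes were 713 (KO), 1198 (L101P), 419 (E292V), 571 (mean of the edited lines) and, for the vector, 88 higher and 13 lower. With the KO labels exchanged, 1 member passed for L101P and 0 for E292V. All genes called were then 142 (KO), 367 (L101P), 105 (E292V), 599 (E690K) and 90 (mean of the edited lines). DESeq2's size factors left 1 member for L101P. The cause of these moves was not tested.

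Leaving out 1 line pair at a time gave these ranges of members called: 0 to 2 for KO, 0 to 3 for L101P, 0 to 2 for E292V and 4 to 9 for E690K against WT, 0 to 5 for the mean of the edited lines, 0 to 8 for L101P against the mean of E292V and E690K, and 3 to 15 for any line. Over all genes the ranges were 147 to 1124 (KO), 367 to 732 (L101P), 57 to 689 (E292V), 639 to 1993 (E690K), 24 to 1089 (mean of the edited lines), 1424 to 2934 (E690K against E292V), 136 to 1981 (L101P against the mean of E292V and E690K), 931 to 3730 (any line) and, for the vector, 0 to 116 higher and 0 to 17 lower. SCD in L101P against the mean of E292V and E690K was -0.981 without the E690K pair and 0.163, the opposite sign, without the E292V pair, since that contrast then sets L101P against 1 line only. For the vector effect, the fit with no replicate block also gave 0 members and 0 genes, so the pairing by line changed no call.

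Of the 20 calls of members in the contrasts of 2 lines, 16 held under each alternative run, and the 4 others were DHCR7 and INSIG1 in L101P, EBP in E292V and FDPS in E690K, each against WT. Each of the 20 calls also held with halved counts. Halving divides all counts alike and keeps the ratios between libraries, so it does not test the effect of depth. A limit of the design is 1 library per line and treatment, which leaves 4 residual degrees of freedom, and 1 line per genotype.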
